A study of Homo sapiens with 4 samples.

Results

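The Notch receptors and ligands were examined in 293T cells, a human embryonic kidney line, after loss of the forkhead transcription factor FOXP4. The members were chosen by gene symbol: the 4 receptors NOTCH1, NOTCH2, NOTCH3 and NOTCH4, the 5 ligands DLL1, DLL3, DLL4, JAG1 and JAG2, and RBPJ, the DNA-binding factor on which the pathway ends. All 10 had a row among the 15218 genes of the count table, and 9 of them passed the filter on low counts. RNA sequencing of mRNA libraries covered 2 FOXP4 KO libraries and 2 control libraries, all from HEK293T cells grown in DMEM with serum and antibiotics, with no other allele or agent named for either group.

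The KO group has limits as a model. The sources describe it in 3 ways, as a CRISPR-Cas9 knockout, as cells transduced with a FOXP4 shRNA virus and selected with puromycin, and, in the sample labels, as a knock down. Both KO libraries have KO1 in their title, which was read as 1 line. Whether the libraries of a group were grown apart is not said, and a p-value here sets a difference against the library-to-library spread alone, which may be technical. The libraries are from bulk cells, in which fewer cells with a transcript and less of it per cell cannot be told apart.

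Notch is a signaling pathway between neighbouring cells. A Delta or Jagged ligand on one cell binds a receptor on the next, ADAM proteases and then γ-secretase cut the receptor, and the freed intracellular part enters the nucleus. There it joins RBPJ and a Mastermind coactivator and turns on genes such as those of the HES and HEY repressors. Without it, RBPJ recruits corepressors. A ligand on the same cell as a receptor can also hold that receptor inactive, so the balance of ligands and receptors matters in this pathway. In the kidney, Notch is known for its part in patterning the nephron, with JAG1 and NOTCH2 as the pair mutated in Alagille syndrome.

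The labels and depth were checked first. FOXP4 had 713 and 886 counts in the KO libraries and 2562 and 2463 counts in the control libraries, a log2 fold change of −1.78 (adjusted p = 0.0038, edgeR's quasi-likelihood test with Benjamini-Hochberg adjustment). Library totals were 42150257 and 41796690 counts in the KO group, and 36393224 and 43057305 in the control group. All 8 kidney progenitor and HEK293 markers were tested, and NEFM, a neurofilament gene, was the only one called (log2 fold change 1.97). Their summed TPM, a level scaled for transcript length and library size, was 254 to 279 in KO libraries and 150 to 179 in control libraries. NEFM alone was at 133 and 140 TPM in the KO columns and 50.6 and 16.9 TPM in control libraries. The other 7 were not called, and the median log2 fold change of the list was −0.03. Markers of endothelium, which also uses Notch, were near 0 for PECAM1, CDH5, TEK and TIE1. The summed TPM of that list was 3.65 to 5.19 in KO libraries and 3.24 to 3.69 in control libraries. Most of it was ESAM, at 3.22 and 4.77 TPM in the KO columns and 3.06 and 3.33 TPM in control libraries. KDR was at 0.40 TPM in both KO columns and at 0.15 and 0.27 TPM in control libraries. Neither ESAM nor KDR was called. The leukocyte markers summed to 1.53 to 2.06 TPM in KO libraries and 2.53 to 3.66 TPM in control libraries. The fibroblast list summed to 7.72 to 12.1 TPM in KO libraries and 6.99 to 8.49 TPM in control libraries. Most of this was COL1A1, which was not called (log2 fold change 0.17, adjusted p = 0.50, edgeR). PDGFRB rose (log2 fold change 2.11) at a low level, 0.61 and 0.65 TPM in the KO columns and 0.20 and 0.10 TPM in control libraries. LUM, which was not tested, was at 0.031 and 0 TPM in the KO columns and 0.95 and 1.14 TPM in control libraries. The ovarian epithelial list summed to 6.18 to 6.36 TPM in KO libraries and 0.211 to 0.232 TPM in control libraries, and WFDC2, which made up nearly all of it in KO libraries, had 85 and 83 counts in KO libraries and 1 and 2 in control libraries. The part of these markers in the results was not tested.

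In FOXP4 KO cells 3 of the 5 ligands and RBPJ were higher, and 2 of the 4 receptors were lower. JAG1, DLL1, RBPJ and JAG2 rose, by 3.63-fold, 2.55-fold, 2.0-fold and 1.59-fold. NOTCH1 fell by 0.76 and NOTCH2 by 0.74 in log2 units. NOTCH3, DLL3 and DLL4 did not pass the test, and NOTCH4 had too few counts to enter it. Thus 4 of the 9 tested members were called higher, where 13.8% of all 14620 tested genes were, and 2 were called lower, where 12.1% were. In either direction 6 of 9 members and 25.8% of all tested genes were called. The members were chosen with earlier results of these data known, so these shares are a description only. The KO and control values of 8 of the 9 tested members did not overlap, and the same held for 68.7% of all tested genes. The median log2 fold change was 0.67 over the tested members and 0.01 over all tested genes. Under upper-quartile scaling, 2383 genes in all were called higher and 1368 lower, against 2013 and 1765 with the TMM scaling used here.

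**Figure D1:**
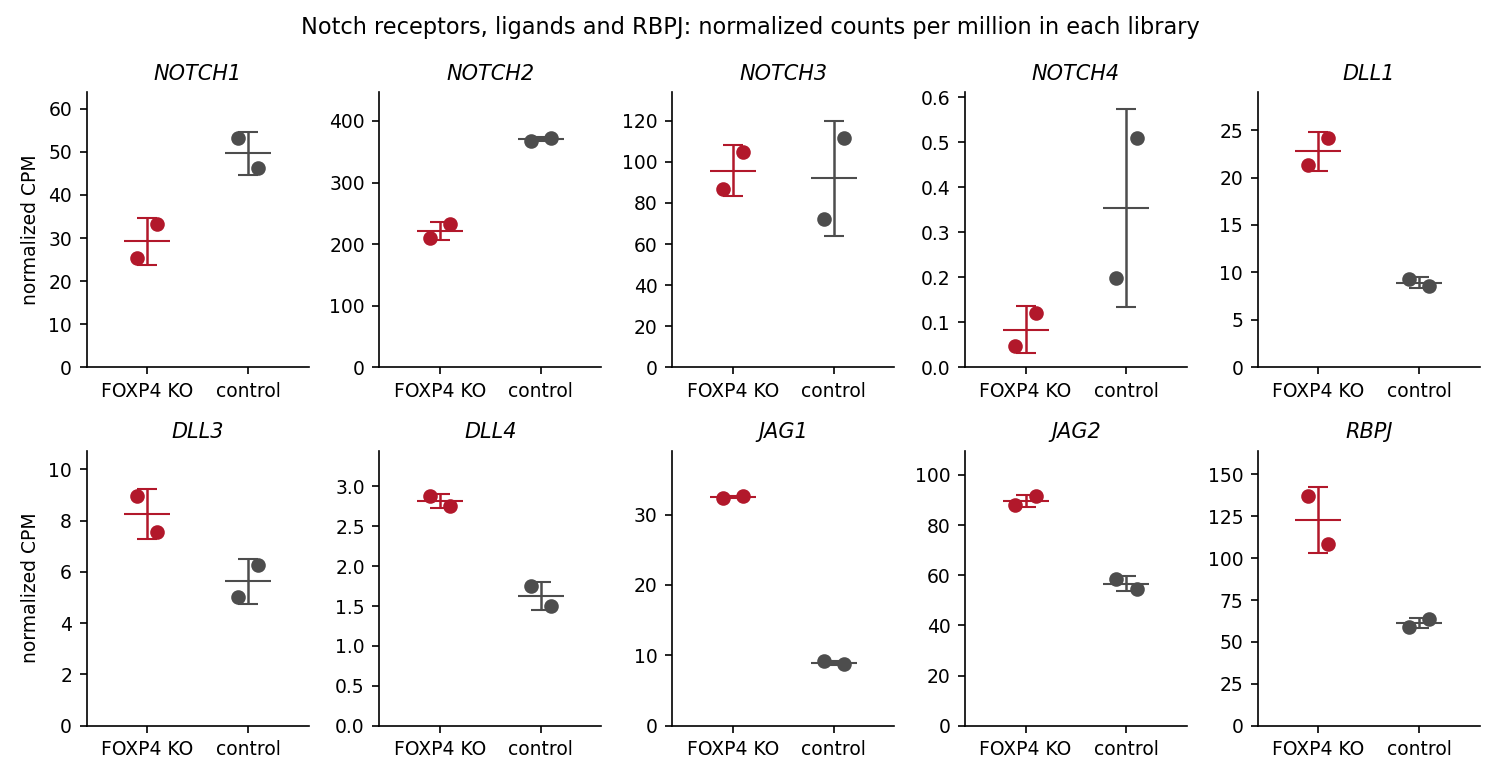
Normalized CPM (counts as a share of the TMM-scaled library size) of the 10 members, 1 panel per gene with its own axis from 0. Points are single libraries, FOXP4 KO on the left and control on the right, and the bars give the mean and SD (n = 2 each). The KO points of JAG1, DLL1, JAG2, RBPJ, DLL3 and DLL4 lie above both control points, those of NOTCH1, NOTCH2 and NOTCH4 lie below, and those of NOTCH3 lie between the control points.

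The stretches upstream of 4 genes are shown as a description of sequence: JAG1, the member with the largest rise, NOTCH2, the most abundant receptor, RBPJ itself, and HES5, the Notch target with the largest fold change in the pathway lists. Of the 5 starts of RBPJ, the second is shown because it alone held the letters marked below. They come from the RefSeq promoter table for GRCh38.p14, in which 8 of the 10 members were matched, all but DLL1 and DLL3. Each is written 5′ to 3′ on the strand of its gene and holds the 250 bases before the annotated start, and capitals mark the letters TGGGAA, the core bound by RBPJ, or TTCCCA, the same core read on the other strand.
RBPJ, second of 5 starts, forward strand, chr4:26319496-26319745: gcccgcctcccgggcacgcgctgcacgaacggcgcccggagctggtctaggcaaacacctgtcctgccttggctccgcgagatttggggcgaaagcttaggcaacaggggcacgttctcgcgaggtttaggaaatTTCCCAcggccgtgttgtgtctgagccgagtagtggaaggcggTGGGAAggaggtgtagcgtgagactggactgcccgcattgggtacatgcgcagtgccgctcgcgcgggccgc
HES5, reverse strand, chr1:2530264-2530513: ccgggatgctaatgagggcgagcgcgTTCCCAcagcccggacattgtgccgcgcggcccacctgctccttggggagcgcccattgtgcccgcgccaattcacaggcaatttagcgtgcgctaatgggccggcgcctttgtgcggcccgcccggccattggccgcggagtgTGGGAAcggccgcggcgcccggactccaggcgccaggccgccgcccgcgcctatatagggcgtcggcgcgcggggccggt
JAG1, reverse strand, chr20:10674000-10674249: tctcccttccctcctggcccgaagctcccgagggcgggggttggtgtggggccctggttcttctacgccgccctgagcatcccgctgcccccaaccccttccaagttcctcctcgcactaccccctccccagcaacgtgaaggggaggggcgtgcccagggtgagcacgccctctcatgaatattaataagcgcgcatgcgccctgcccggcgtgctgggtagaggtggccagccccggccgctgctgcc
NOTCH2, reverse strand, chr1:120069663-120069912: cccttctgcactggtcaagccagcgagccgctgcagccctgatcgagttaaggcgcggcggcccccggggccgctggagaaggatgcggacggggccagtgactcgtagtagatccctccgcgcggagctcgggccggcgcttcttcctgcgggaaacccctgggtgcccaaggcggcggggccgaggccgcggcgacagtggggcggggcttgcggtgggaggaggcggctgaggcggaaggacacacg
Windows of 300 bases, from 250 before to 50 after each start, were searched on both strands. TGGGAA was found in 24.0% of 35116 windows in the table, and in both orientations in 1.78%. Among the members' windows it was present only at this start of RBPJ, at −72 as TGGGAA and at −115 as TTCCCA. HES5 likewise held both orientations, at −80 and −224. The forkhead core TGTTTAC, or GTAAACA on the other strand, was in 3.42% of all windows and in no window of the 8 matched members or of HES5. A match is a description of letters in these windows, and the absence of one says nothing about binding.

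The receptors are single-pass membrane proteins that carry the signal into the nucleus. NOTCH1 (ENSG00000148400) lies on the reverse strand of chromosome 9 from 136494433 to 136545786 in GRCh38. It had 1095 and 1386 counts in KO libraries 1 and 2 and 1888 and 1995 counts in control libraries 1 and 2. On the normalized scale, as CPM of the TMM-scaled library size, this was 25.4 and 33.2 CPM in KO cells, against 53.3 and 46.2 CPM in control cells, so that both KO libraries were below both controls. The log2 fold change was −0.76 (95% interval −1.17 to −0.35, adjusted p = 0.023 by edgeR's quasi-likelihood test). This call was the less firm of the receptor calls: the adjusted p from edgeR was 0.11 without FOXP4 KO replicate 1 and 0.074 without control replicate 1.

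NOTCH2 (ENSG00000134250, chromosome 1, 119911553 to 120069626, reverse strand) was the most abundant receptor in every library. It had 9075 and 9702 counts in the KO libraries and 13038 and 16090 in the control libraries. Its normalized level was 210 and 232 CPM in KO cells and 368 and 373 CPM in control cells, and the KO libraries were again the low ones, with no overlap. For NOTCH2 the log2 fold change was −0.74 (95% interval −1.02 to −0.47, adjusted p = 0.0085, edgeR), and without FOXP4 KO replicate 1 the adjusted p was 0.056. NOTCH2 has partial copies in the genome, and how the authors' counting split their shared reads is not known, so its level is uncertain to that extent. NOTCH2NL, a copy of the first part of the receptor gene, had 439 and 334 counts in KO libraries and 328 and 338 in control libraries (log2 fold change 0.09, adjusted p = 0.77, edgeR). NBPF26, which also carries NOTCH2 sequence, had 1541 and 1460 counts in KO libraries and 1348 and 1767 in control libraries (log2 fold change −0.16, adjusted p = 0.36, edgeR). Neither copy passed the test.

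NOTCH3 (ENSG00000074181, chromosome 19, 15159038 to 15200981, reverse strand), a receptor known best from vascular smooth muscle, had the widest spread between control libraries among the tested members. Its normalized level was 86.9 and 105 CPM in KO cells and 72.1 and 112 CPM in control cells, and the groups overlapped. The log2 fold change was 0.06 (95% interval −0.47 to 0.59, adjusted p = 0.86, edgeR). Its sign rested on single libraries, with −0.25 without control replicate 1 and −0.08 without FOXP4 KO replicate 2. NOTCH4 (ENSG00000204301, chromosome 6, 32194843 to 32224067, reverse strand), an endothelial receptor, was nearly silent, with 2 and 5 counts in KO libraries and 7 and 22 in control libraries. It was left out of the test by the filter, and with no filter it had an adjusted p of 0.085 in edgeR. Its exons overlap those of GPSM3 on the same strand, so that its few reads are of uncertain origin.

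The Jagged ligands both rose. JAG1 (ENSG00000101384, chromosome 20, 10637684 to 10673999, reverse strand) had 1397 and 1362 counts in KO libraries and 324 and 378 in control libraries. These were 32.4 and 32.6 CPM in KO cells, against 9.14 and 8.75 CPM in control cells, and the KO libraries stood far above the controls, with little spread within either group. The log2 fold change was 1.86 (95% interval 1.51 to 2.21, adjusted p = 0.0019, edgeR), which was higher than that of 97.3% of all tested genes. JAG1 was called whichever single library was left out, with log2 fold changes of 1.82 to 1.87. An annotated antisense gene, AL050403.2, overlaps exons of JAG1, and since the counting strand is not stated, reads of the pair cannot be told apart where their exons overlap.

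JAG2 (ENSG00000184916, chromosome 14, 105140981 to 105168824, reverse strand), the most abundant ligand of these cells, changed less than JAG1. It had 3793 and 3822 counts in KO libraries and 2078 and 2354 in control libraries. The normalized levels were 87.9 and 91.4 CPM in KO cells and 58.6 and 54.5 CPM in control cells, again with both KO libraries above both controls. JAG2 had a log2 fold change of 0.67 (95% interval 0.40 to 0.93, adjusted p = 0.011, edgeR). This call was lost, with the fold change nearly the same, without FOXP4 KO replicate 1 (adjusted p = 0.054, edgeR) and without FOXP4 KO replicate 2 (adjusted p = 0.060, edgeR). A non-coding gene on the same strand, AL512356.1, overlaps exons of JAG2, and the split of their reads in the overlap is likewise uncertain.

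Of the Delta ligands, DLL1 rose. DLL1 (ENSG00000198719, chromosome 6, 170282206 to 170306565, reverse strand), an activating ligand, had 920 and 1011 counts in KO libraries and 330 and 368 in control libraries. Its level was 21.3 and 24.2 CPM in KO cells and 9.31 and 8.52 CPM in control cells, without overlap. DLL1 had a log2 fold change of 1.35 (95% interval 0.95 to 1.75, adjusted p = 0.0055, edgeR), and it was called whichever library was left out.

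DLL3, a divergent ligand known to act mainly inside its own cell as an inhibitor, and DLL4, the ligand of sprouting vessels, did not pass the test. DLL3 (ENSG00000090932, chromosome 19, 39498895 to 39508481, forward strand) had 386 and 316 counts in KO libraries and 178 and 270 in control libraries, which gave 8.95 and 7.56 CPM in KO cells and 5.02 and 6.25 CPM in control cells. Both KO values were above the controls, but the log2 fold change of 0.55 (95% interval 0.03 to 1.07) had an adjusted p of 0.11 in edgeR. DLL4 (ENSG00000128917, chromosome 15, 40929333 to 40939073, forward strand) had 124 and 115 counts in KO libraries and 62 and 65 in control libraries, or 2.87 and 2.75 CPM in KO cells and 1.75 and 1.51 CPM in control cells. Its log2 fold change was 0.79 (95% interval 0.18 to 1.40, adjusted p = 0.064, edgeR). It passed with edgeR's exact test (adjusted p = 0.047) and with upper-quartile scaling (adjusted p = 0.0496, edgeR), and so lay at the edge of the threshold.

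RBPJ (ENSG00000168214, chromosome 4, 26163455 to 26435131, forward strand), which serves all 4 receptors, had 5906 and 4545 counts in KO libraries and 2097 and 2746 in control libraries. Its level was 137 and 109 CPM in KO cells and 59.2 and 63.6 CPM in control cells, with KO replicate 1 the highest library and no overlap between groups. The log2 fold change was 1.0 (95% interval 0.65 to 1.35, adjusted p = 0.0076, edgeR), and it ranged from 0.83 to 1.16, called each time, when each library was left out in turn. RBPJ is the factor that acts both as repressor and as activator, and its transcript count alone does not tell these states apart.

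**Figure D2:**
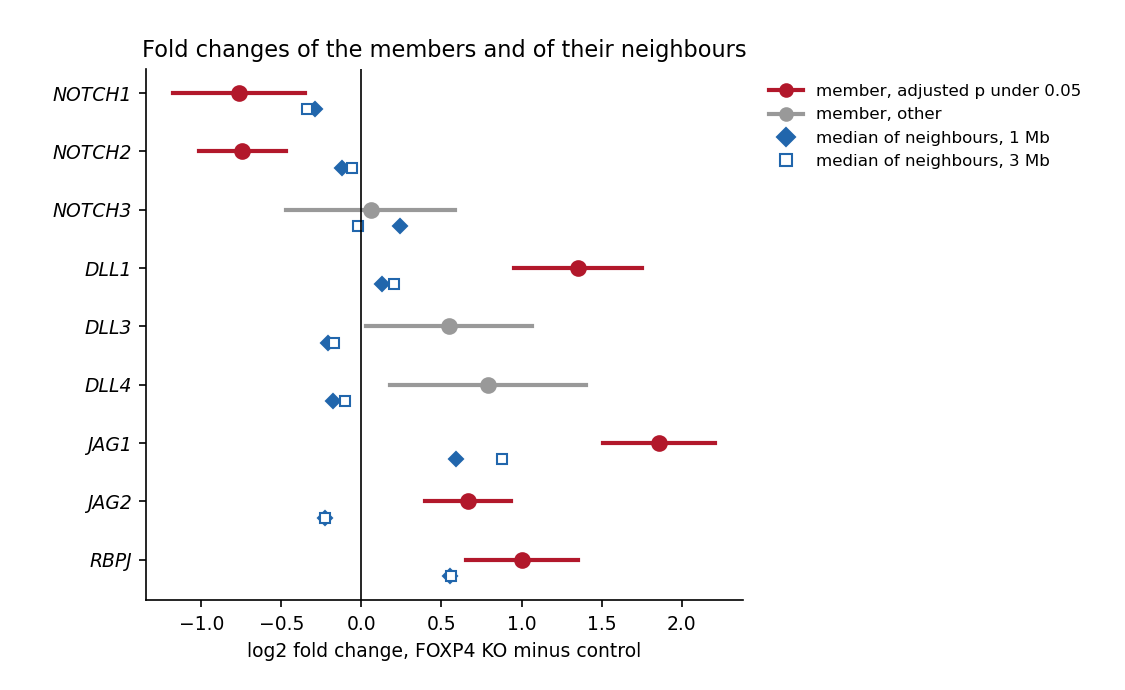
Log2 fold changes (FOXP4 KO minus control) of the 9 tested members, with 95% intervals from edgeR's quasi-likelihood fit, and below each member the median of tested genes that start within 1 Mb (filled diamond) or 3 Mb (open square). Red members have an adjusted p under 0.05. Around JAG1 and RBPJ the medians lie to the right of 0 with the member, and around JAG2 they lie to the left while the member lies to the right.

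Members were set beside the genes around them, because earlier results of these data had shown stretches of chromosomes whose genes moved together. For comparison, 13.8% of all tested genes were called higher and 12.1% lower. The tested neighbours of JAG1 and RBPJ had medians above 0, and those called were all higher in KO cells. Within 3 Mb of JAG1, 7 of 11 tested genes were called higher, with a median log2 fold change of 0.88, among them PAK5 (2.73), a neuronal kinase, ISM1 (2.17), a secreted protein, and PLCB1 (1.07), a phospholipase. Within 1 Mb the median was 0.59 over 5 genes, and 2 of them, PAK5 and MKKS (0.68), were called. Within 3 Mb of RBPJ, 6 of 12 tested genes were called higher, with a median of 0.56 (0.55 over the 7 within 1 Mb, 3 of them called higher), among them PPARGC1A (1.99), a coactivator of mitochondrial genes, LGI2 (1.27) and SEPSECS (1.17). These neighbours were chosen for naming after their values were seen. JAG1 at 1.86 and RBPJ at 1.0 were above the medians of their surroundings.

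The surroundings of the other called members were described over the same windows, again beside 13.8% of all tested genes called higher and 12.1% called lower. The 9 genes within 1 Mb of DLL1 had a median of 0.13, with 1 called higher and 1 lower, and the 14 within 3 Mb a median of 0.21, with 3 called higher and 1 lower, against 1.35 for DLL1. The 21 genes within 1 Mb of JAG2 had a median of −0.23, with 1 called higher and 5 lower, and the 44 within 3 Mb also −0.23, with 2 called higher and 11 lower, while JAG2 rose. The 62 genes within 1 Mb of NOTCH1 had a median of −0.29, with 6 called higher and 16 lower. For the 80 within 3 Mb it was −0.34, with 7 called higher and 26 lower, the same direction as NOTCH1. Around NOTCH2, the median was −0.12 over 5 genes within 1 Mb and −0.06 over 14 within 3 Mb, with 1 called lower in each window. The part of the surroundings in the members' changes was not tested.

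Levels of different genes were compared in TPM, which is scaled to transcript length, and counts divided by exon length served as a check. The KO columns of the TPM table are numbered, but whether these numbers are those of the replicates is not clear, so they are called the first and the second KO column. Summed over the 4 receptors, the level was 65.1 and 74.8 TPM in KO cells and 96.4 and 108 TPM in control cells. Summed over the 5 ligands, it was 65.8 and 66.3 TPM in KO cells and 35.1 and 35.2 TPM in control cells. The ligand transcripts therefore made up 50.2% and 47.0% of all receptor and ligand TPM in KO cells, against 26.7% and 24.6% in control cells, and the ratio of ligand to receptor TPM was 1.01 and 0.887 in KO cells and 0.364 and 0.326 in control cells. Neither sum overlapped between groups. With 2 libraries against 2, an exact two-sided permutation test cannot give a p below 0.33, so these sums are given with no test.

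**Figure D3:**
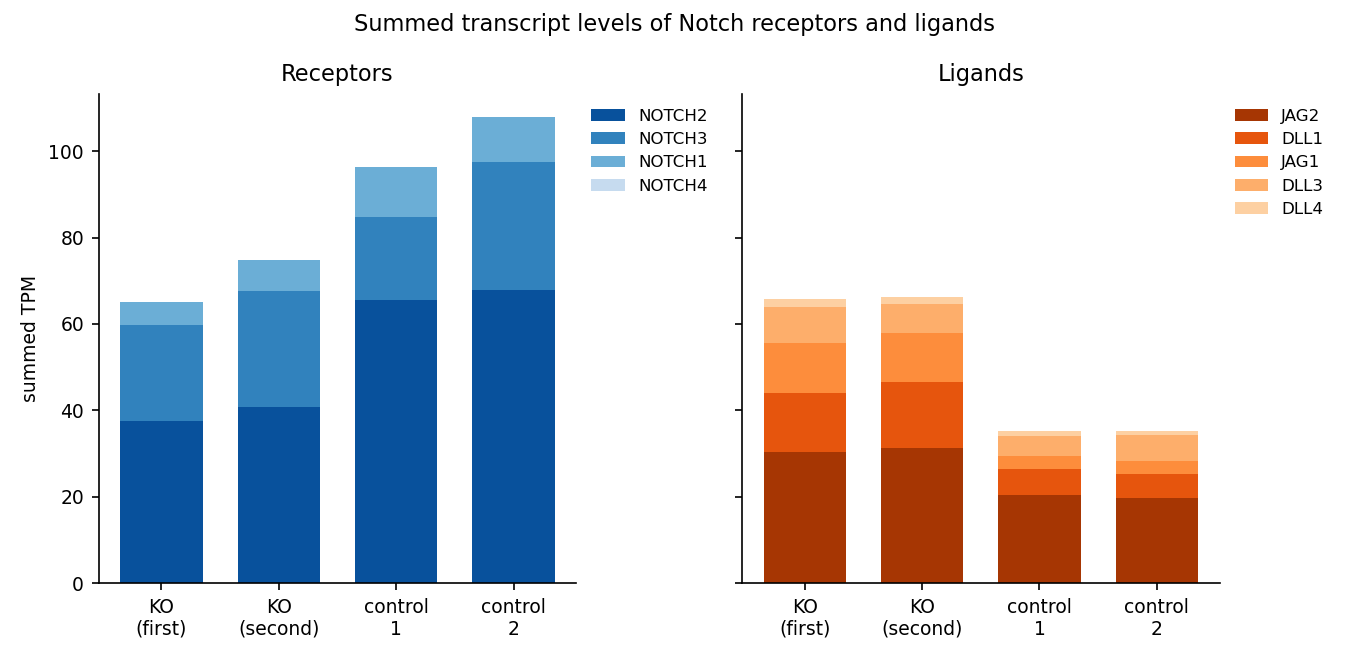
Stacked TPM of the 4 receptors (left) and the 5 ligands (right) in each library, the KO columns left of the controls. The receptor columns are lower in KO (65.1 and 74.8 TPM) than in control (96.4 and 108 TPM), and the ligand columns are higher in KO (65.8 and 66.3 TPM) than in control (35.1 and 35.2 TPM).

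The make-up of both sums differed as well. NOTCH2 was 57.5% and 54.5% of receptor TPM in KO cells and 67.9% and 62.9% in control cells. NOTCH3 was 34.1% and 36.1% in KO cells and 20.1% and 27.6% in control cells, although its own level did not pass the test. The share of NOTCH1 was 8.37% and 9.41% in KO cells and 11.9% and 9.45% in control cells, close to touching between the groups. Among the ligands, JAG1 held 17.6% and 16.8% in KO cells and 8.71% and 8.51% in control cells, and JAG2 held 46.3% and 47.1% in KO cells and 58.0% and 55.7% in control cells. DLL1 held 20.8% and 23.3% in KO cells and 17.1% and 16.2% in control cells. JAG2 thus stayed the leading ligand in all 4 libraries while its share was lower in KO.

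The order of levels also moved. In KO cells it ran RBPJ (53.7 ± 5.37 TPM, mean ± SD, n = 2), NOTCH2 (39.1 ± 2.32), JAG2 (30.8 ± 0.587), NOTCH3 (24.6 ± 3.37), DLL1 (14.6 ± 1.24), JAG1 (11.3 ± 0.305), DLL3 (7.63 ± 1.07), NOTCH1 (6.24 ± 1.12), DLL4 (1.66 ± 0.069) and NOTCH4 (0.020 ± 0.014). Of these neighbours in the order, only DLL3 and NOTCH1 overlapped between libraries in TPM. In control cells it ran NOTCH2 (66.7 ± 1.65 TPM, n = 2), RBPJ (29.3 ± 0.642), NOTCH3 (24.6 ± 7.35), JAG2 (20.0 ± 0.543), NOTCH1 (10.8 ± 0.917), DLL1 (5.84 ± 0.217), DLL3 (5.33 ± 0.935), JAG1 (3.03 ± 0.046), DLL4 (0.979 ± 0.084) and NOTCH4 (0.105 ± 0.066). There RBPJ and NOTCH3, NOTCH3 and JAG2, and DLL1 and DLL3 overlapped. JAG1 and DLL1 thus stood above NOTCH1 in KO cells and below it in control cells. The full order is that of TPM and depends in part on the unit. With counts divided by exon length, RBPJ was 0.611 and 0.417 times the receptor sum in KO libraries 1 and 2. There NOTCH2 was 51.7% and 49.0% of that sum, so RBPJ and NOTCH2 changed places between libraries. In control libraries 1 and 2, RBPJ was 0.184 and 0.178 times the sum and NOTCH3 was 22.1% and 30.8% of it.

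The other genes of the pathway, 63 in 8 lists by role, did not move as 1 block. Of the 62 tested, 10 were called higher, where 13.8% of all tested genes were, and 8 lower, where 12.1% were, so that both shares were near those of all genes. Their median log2 fold change was −0.12. Of the 18 called genes, 4 of those called higher and none of those called lower were called in each of the 4 fits that left out 1 library. The genes called in each of these fits were HES5, DTX3, DTX1 and CNTN1. The other called genes lost the call in at least 1 of these fits. Such fits hold fewer libraries, so a lost call alone does not show that a change rested on 1 library. ADAM17 and NCSTN, for example, kept log2 fold changes of 0.36 to 0.46 and 0.36 to 0.47 in them.

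**Figure D4:**
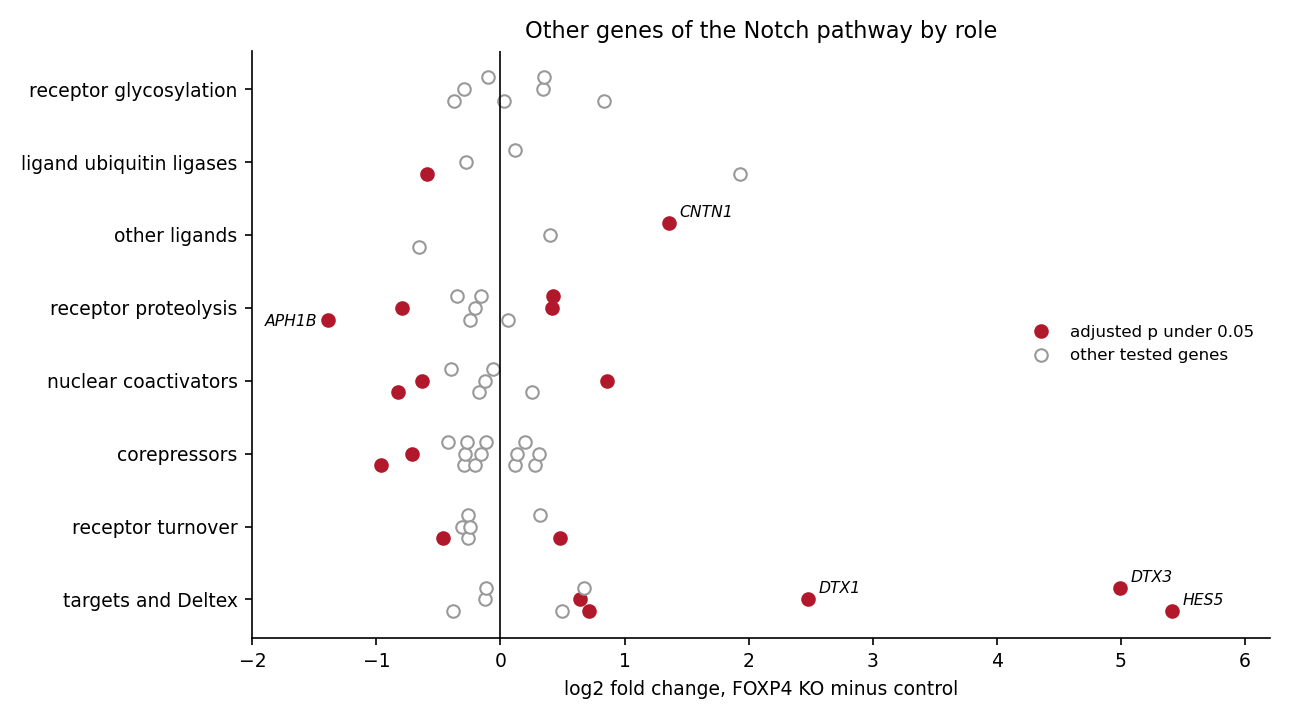
Log2 fold changes (FOXP4 KO minus control, edgeR) of the 62 tested pathway genes that are not members, 1 row per role. Filled red points have an adjusted p under 0.05. HES5 (5.41), DTX3 (5.00) and DTX1 (2.48) lie far to the right, and the called genes of other roles lie on both sides of 0.

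The list of targets and Deltex genes, which read out or modulate the pathway, had 5 of 10 genes called higher. Of all tested genes, 13.8% were called higher and 12.1% lower. The list was chosen with earlier results of these data known, so its share is a description only. HES5, a repressor that Notch turns on in progenitors, had 317 and 333 counts in KO libraries and 4 and 10 counts in control libraries (log2 fold change 5.41, adjusted p = 0.0013, edgeR). Deltex proteins are ubiquitin ligases, and DTX3 had 1467 and 1671 counts in KO libraries and 24 and 69 counts in control libraries. Its log2 fold change was 5.00 (adjusted p = 0.0018, edgeR). DTX1, itself a Notch target, had 106 and 95 counts in KO libraries and 17 and 16 counts in control libraries (log2 fold change 2.48, adjusted p = 0.0061, edgeR). The remaining calls, HES1 (0.71) and HES4 (0.64), were smaller, and each was called in 1 of the 4 fits without a library. HEY1, HEY2 and HEYL, repressors of the same class, did not pass, with log2 fold changes of −0.12, 0.49 and −0.12. In this list 0 genes were called lower by edgeR's quasi-likelihood test, and 0 had an unadjusted p under 0.05 in that direction or were called lower by DESeq2, limma-voom or edgeR's exact test.

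The genes that prepare ligands and receptors were called in few cases, where 13.8% of all tested genes were called higher and 12.1% lower. Of 7 genes for receptor glycosylation, the enzymes that set which ligand a receptor answers to, 0 were called by edgeR's quasi-likelihood test, with 1 higher and 1 lower at an unadjusted p under 0.05, 1 called lower by DESeq2 and 0 by limma-voom or edgeR's exact test. Of 4 ubiquitin ligases that activate ligands, MIB2 was called lower (log2 fold change −0.59, adjusted p = 0.044, edgeR), and it lost the call in each of the 4 fits without a library (highest adjusted p = 0.20). NEURL1B, another of these ligases, had a larger fold change but was not called (log2 fold change 1.93, adjusted p = 0.11, edgeR). It had 389 and 362 counts in KO libraries and 18 and 175 in control libraries. By limma-voom 1 ligase was called higher, and by DESeq2 or edgeR's exact test 0. Among 3 tested non-canonical ligands, CNTN1, a neural adhesion protein, rose to 44.3 and 36.7 CPM in KO cells, against 15.9 and 15.7 CPM in control cells (log2 fold change 1.36, adjusted p = 0.0045, edgeR). DLK2 of the same list was lower but not called (−0.66, adjusted p = 0.052, edgeR). DLK1, the fourth of that list, was listed at 0 TPM in all 4 libraries.

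The genes that cut and use the receptors were split in direction, as were all tested genes, with 13.8% called higher and 12.1% lower. Of 9 proteolysis genes, NCSTN, a γ-secretase subunit, and ADAM17, a sheddase, were called higher (log2 fold changes 0.42 and 0.43), and FURIN, which makes the first cut in the Golgi, and APH1B, another γ-secretase subunit, were called lower (−0.80 and −1.39). NCSTN and ADAM17 lost the call in each of the 4 fits without a library, with adjusted p up to 0.18 and 0.17 in edgeR. For APH1B the 2 deposited tables differ: counts were 117 and 89 in KO libraries and 204 and 301 in control libraries, while TPM was 3.36 and 3.02 in KO cells and 3.53 and 3.68 in control cells. Of 8 coactivators, MAML3 was called higher (0.86) and MAML1 and CREBBP lower (−0.64 and −0.83), so that Mastermind genes moved in both directions. MAML3 passed in 1 and MAML1 and CREBBP each in 2 of the 4 fits without a library.

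Of 14 corepressor genes, 2 were called lower, where 12.1% of all tested genes were called lower and 13.8% higher. CTBP2, a corepressor that binds many repressors, was one of them (log2 fold change −0.71, adjusted p = 0.0087, edgeR), and it was called in 3 of the 4 fits without a library. Of the corepressors 0 were called higher by edgeR's quasi-likelihood test, and 0 had an unadjusted p under 0.05 in that direction or were called higher by DESeq2, limma-voom or edgeR's exact test. Of 7 genes of receptor turnover, FBXW7, which marks the intracellular receptor for destruction, was called higher (0.48) and AAK1, an endocytic kinase, lower (−0.46). Both were near the threshold (adjusted p = 0.049 and 0.048, edgeR), and each was called in 1 of the 4 fits without a library.

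**Figure D5:**
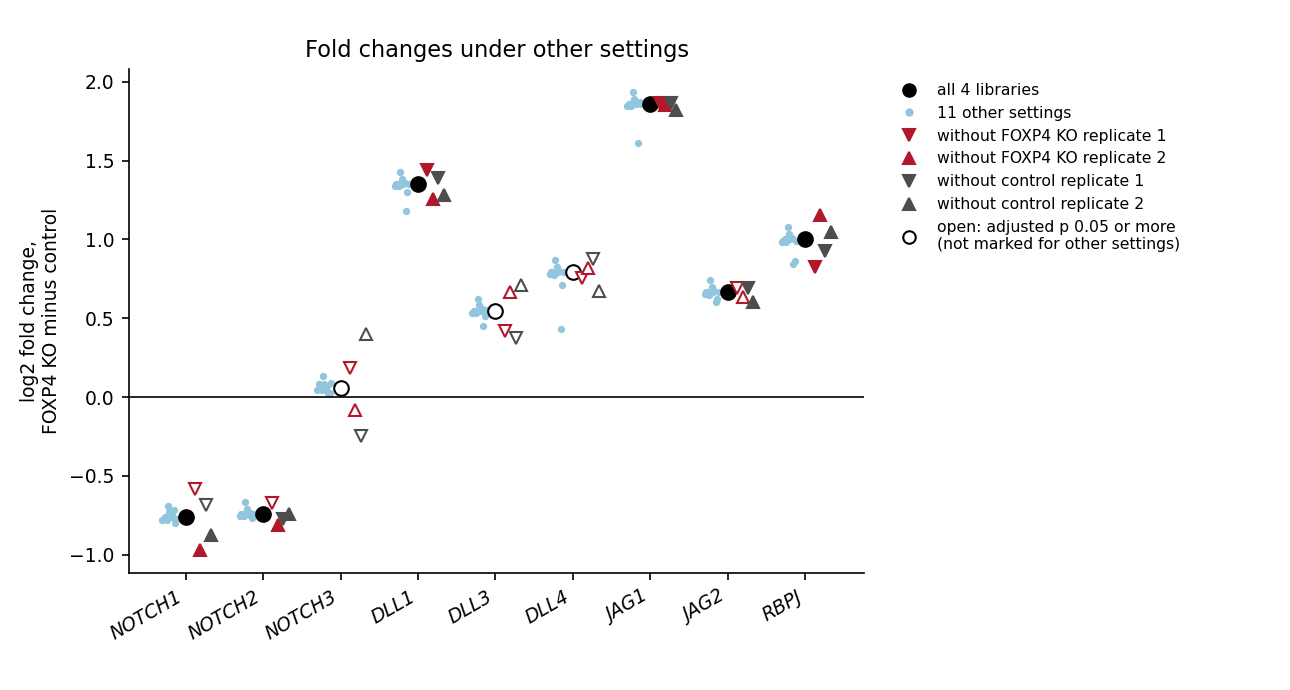
Log2 fold changes (FOXP4 KO minus control) of the 9 tested members with all 4 libraries (black circles), with each library left out (triangles, open where the adjusted p was 0.05 or more) and under 11 other settings of test, scaling, filter or unit (small blue points). JAG1, DLL1 and RBPJ keep filled symbols throughout, and the triangles of NOTCH3 lie on both sides of 0.

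The genes whose pattern over the 4 libraries was most like that of a called member were taken by the Euclidean distance of mean-centred log2 CPM. Nearest to JAG1 were LEAP2, a secreted peptide gene (distance 0.066, log2 fold change 1.82), and the neuronal enolase ENO2 (0.11, 1.92). Nearest to DLL1 were FAM83H (0.044), OTOG (0.051) and CFAP99 (0.057), and nearest to RBPJ were the sugar transporter gene SLC2A12 (0.035), CNGA4 (0.041) and the serotonin receptor gene HTR7 (0.054). JAG2 was nearest to ZFP37 (0.016), RUNDC3B (0.026) and AC006254.1 (0.037). NOTCH1 was nearest to GLI3, a transcription factor of the Hedgehog pathway (0.045), TMEM88 (0.046) and WRNIP1 (0.056), and NOTCH2 to ASB6 (0.031), CLN6 (0.032) and MEX3D (0.035). With 4 libraries, such likeness is mainly a matter of a similar fold change. Many other genes also lay close to each called member, so those named are not a distinct group. TMEM88, CNGA4 and CFAP99 were at low levels (mean log2 CPM −1.83, −1.19 and −0.49), where the distance depends on the small count added before the log.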

How the data were processed

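RNA sequencing of 2 FOXP4 KO and 2 control libraries was analysed. One table deposited by the authors holds raw counts of 15218 genes. Another holds TPM of 20263 genes, which the authors had scaled for transcript length and library size. How reads were aligned and counted is not given in the sources used here. Mouse builds, GRCm38 and mm10, stand in the submitters' processing notes, although the gene IDs are human. RNA was extracted with TRIzol per the methods and with a column kit per the labels. The quasi-likelihood test of edgeR 4.0.16 (R 4.3.3) was run on counts after filterByExpr and TMM scaling, without a replicate block, and with Benjamini-Hochberg adjustment over 14620 genes and a threshold of 0.05. CPM were computed from TMM-scaled library sizes. The procedure was also run on simulated counts with the same dispersion for all genes and far fewer changed genes than were called here. That run therefore does not speak to error rates in these data.

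Coordinates and 14608 tested genes were placed by the GENCODE release 29 annotation of GRCh38, and promoter windows came from RefSeq on GRCh38.p14. Alternatives were DESeq2 1.42.0, limma 3.58.1 (voom, and trend on log2(TPM + 1) and log2(TPM + 0.1) of genes with a mean TPM of at least 0.1), edgeR's exact test, other scalings, filters on low counts (none, or a mean of at least 50 counts), the replicate block and each library left out. Named genes are the members, the 3 genes nearest to each called member, up to 3 called genes with the lowest p in each pathway list, copies of NOTCH2 and FOXP4. In the list of targets and Deltex genes, HES1 and HES4 and the HEY genes are named beyond this rule, after their values were seen. The same holds for ADAM17 in the proteolysis list, NEURL1B, DLK2, the chromosomal neighbours and the marker genes. The members and lists were chosen with earlier results of these data known. A few genes taken by this rule are counted but not reported here. A planned comparison of the members' protein sequences was not run.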

Additional observations from a re-analysis of the deposited data

How the results depend on the processing

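With each library left out in turn, the members called numbered 3 to 4 higher and 0 to 2 lower, the other pathway genes 4 to 8 higher and 1 to 7 lower, and all genes 639 to 2013 higher and 467 to 1614 lower. These fits have 3 libraries, and the lone library of a group is assumed to vary like the other group. JAG1, DLL1 and RBPJ were called in all 4 of them. NOTCH3 ranged from −0.25 without control replicate 1 to 0.40 without control replicate 2, and was −0.08 without FOXP4 KO replicate 2. In the 11 other alternatives the 6 called members kept direction and call, and only DLL4 gained one, in 2 of them. With the count table divided by exon length in place of TPM, ligands were 52.0% of receptor and ligand transcripts in KO cells and 29.2% in control cells, and NOTCH2 was 50.4% of receptors in KO cells and 60.3% in control cells. The change of unit moved these shares by more than 1 SD between libraries, but left the order of the groups as it was.

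With the replicate number as a block, 4 members were called higher and 2 lower, 8 pathway genes higher and 7 lower, and 1981 genes in all higher and 1637 lower. The block changed no call of a member. The numbers gave no visible pairing of the libraries, with a correlation of −0.0026 across genes between the replicate differences of the groups. With so few libraries this cannot tell whether those with the same number shared a culture or day. The depth limits NOTCH4, whose 2 to 22 counts allow no firm level.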
